A study of Mus musculus with 2 samples.

Results

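Sox7, Sox17 and Sox18 are the SoxF transcription factors, and they were taken by symbol as 3 of the 22401 features counted in single cells of whole mouse hearts at E11.5 (embryonic day). They were chosen by name with earlier results of these data known, namely a Sox17 level past 2-fold higher in one endothelial cluster of the mutant. The data were 2 libraries, 1 per genotype. The control embryos carried Hand2fx/+ and R26RmTmG/wt and no Cre. The H2CKO embryos carried Nfatc1Cre/wt, Hand2fx/fx and R26RmTmG/wt, so that both genotypes held a floxed Hand2 allele and 1 copy of the mTmG reporter, which switches from membrane Tomato to membrane GFP once Cre has acted. Hand2 encodes a transcription factor of heart development. Cre was expressed from Nfatc1, a gene of the endocardium, and it was absent from the control, so the loss of Hand2 and the presence of the Cre allele cannot be told apart. How many embryos made up a library, and their sex, are not given in the sources used here. All embryos were held on ice for about 3 hours before dissociation. With 1 library per genotype no difference between genotypes has a replicate check, no p-value was computed, and the intervals given are 95% counting intervals that leave out the variation between embryos.

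SoxF proteins bind DNA through an HMG box, a domain that fits into the minor groove and bends the helix, and they activate genes through their C-terminal part. They are known from the endothelium. Sox17 is known for arterial identity and for endoderm, Sox18 for the start of lymphatic development through Prox1, and Sox7 for early blood and vessel formation. The 3 factors can stand in for each other in part, and they act upstream of Notch genes such as Dll4. The endocardium, the inner lining of the heart, is an endothelium, and it also gives rise to cushion mesenchyme and to part of the coronary vessels.

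The 3 genes are close relatives, so it was checked whether their reads could be told apart in the GENCODE M21 transcripts on GRCm38. The longest run of identical coding bases was 29 bases, between Sox17 and Sox18, and it was 22 bases between Sox7 and Sox17 and 20 between Sox7 and Sox18. No transcript of another gene held a 91-base stretch of Sox7, Sox17 or Sox18. The second read of these libraries was 91 bases long, so a full-length exact read belonged to 1 member.

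Sox7 lies at chr14:63943673-63950732 on the plus strand, Sox17 at chr1:4490931-4497354 on the minus strand, and Sox18 at chr2:181669836-181671640 on the minus strand. Sox7 and Sox18 have 1 annotated transcript of 2 exons each, and Sox17 has 8 transcripts of 1 to 5 exons. An annotated gene on the other strand, Gm37587, overlaps Sox17 and is not among the counted features. Counts from the 3′ end do not allow the level of one gene to be ranked against that of another, so each gene is compared with itself.

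The libraries held 14114 control and 13885 H2CKO barcodes with 195825720 and 201477256 UMIs, where a UMI marks 1 captured RNA molecule, and 57 barcodes occurred in both. After filtering, 8707 control and 11533 H2CKO cells remained, with medians of 16200 and 13431 UMIs. Clustering without the 3 genes gave 1 endothelial cluster of 366 control and 750 H2CKO cells, in which all 12 endothelial markers were detected. At a finer resolution the same 1116 cells fell into a Klf2-high cluster of 246 control and 261 H2CKO cells and a Klf2-low cluster of 120 and 489 cells. Klf2 is a gene induced by blood flow. Both clusters held endocardial markers: Nfatc1 stood at 289 CPM (UMIs of the gene per 1000000 UMIs of the same cells) in the Klf2-high and 86.6 CPM in the Klf2-low cells of the control, and Npr3 at 56.8 and 476 CPM. Hand2, the deleted gene, stood at 257 CPM in control and 7.96 CPM in H2CKO Klf2-high cells, and at 172 and 13.0 CPM in Klf2-low cells. GFP stood at 17.1 and 13.1 CPM in the Klf2-high and Klf2-low cells of the control, which has no Cre, and at 1629 and 971 CPM in those of H2CKO.

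Nearly all SoxF molecules lay in endothelial cells. In the control these cells held 88.3% of the 324 Sox7 UMIs, 90.1% of the 223 Sox17 UMIs and 86.4% of the 566 Sox18 UMIs, while holding 3.90% of all UMIs. In H2CKO they held 93.2% of 442, 93.4% of 742 and 93.0% of 1096 UMIs, beside 5.32% of all UMIs. Each gene was thus concentrated in the endothelium of both genotypes, and none of the 3 had been used to form the clusters.

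In all endothelial cells Sox7 stood at 47.5 CPM in the control (42.2 to 53.4) and 43.6 CPM in H2CKO (39.5 to 48.0). Sox17 stood at 33.4 CPM (29.0 to 38.4) and 73.3 CPM (67.9 to 79.0). Sox18 stood at 81.3 CPM (74.3 to 88.8) and 108 CPM (101 to 115). The intervals of Sox7 overlap between the libraries, and those of Sox17 and Sox18 do not.

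The next highest class with more than 1000 cells in each library was the mesenchymal-like one, whose cells include those of the cushions. Sox7 stood there at 0.856 CPM in the control and 0.879 CPM in H2CKO, Sox17 at 0.540 and 1.49 CPM, and Sox18 at 2.16 and 1.58 CPM. Endothelial Sox18 was 37.6-fold above this in the control (27.9 to 51.7) and 68.1-fold in H2CKO (42.9 to 115). In the control, 42 of 1600 mesenchymal-like cells (2.63%) held a Sox18 UMI, against 0.298% of erythroid-like cells, a class that should lack the gene, at median depths of 12353 and 18355 UMIs. The control mesenchymal-like share of Sox18 is thus above the background seen in red cells of the same library (exact binomial intervals of 1.90 to 3.53% and 0.129 to 0.587%). Whether these UMIs came from endothelial RNA, doublets or the mesenchymal cells was not tested.

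Cardiomyocyte-like cells held 7 Sox7, 1 Sox17 and 9 Sox18 UMIs in 1546 control cells, and 7, 7 and 8 UMIs in 3362 H2CKO cells, which is at most 0.201 CPM. Erythroid-like cells lay at 0.059 to 0.205 CPM. These 2 classes were the lowest of those with over 1000 cells in each library, and their intervals overlap for each gene. Epicardial-like cells of the control held 1 Sox7, 0 Sox17 and 4 Sox18 UMIs in 692 cells, and a count of 0 allows up to 0.270 CPM of Sox17. The H2CKO epicardial-like cells held 9 Sox17 UMIs in 227 cells, of which 4 lay in 1 cell. White blood-like cells of H2CKO held 21 Sox18 UMIs in 80 cells, of which 12 lay in 1 cell, so the 16.1 CPM measured there rests largely on that cell. Outside the endothelium, 67 of the 71 control cells and 49 of the 56 H2CKO cells with Sox18 held a single UMI. The 4 clusters left unnamed held at most 6 UMIs of any member in a library, with levels of at most 2.87 CPM.

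**Figure D1:**
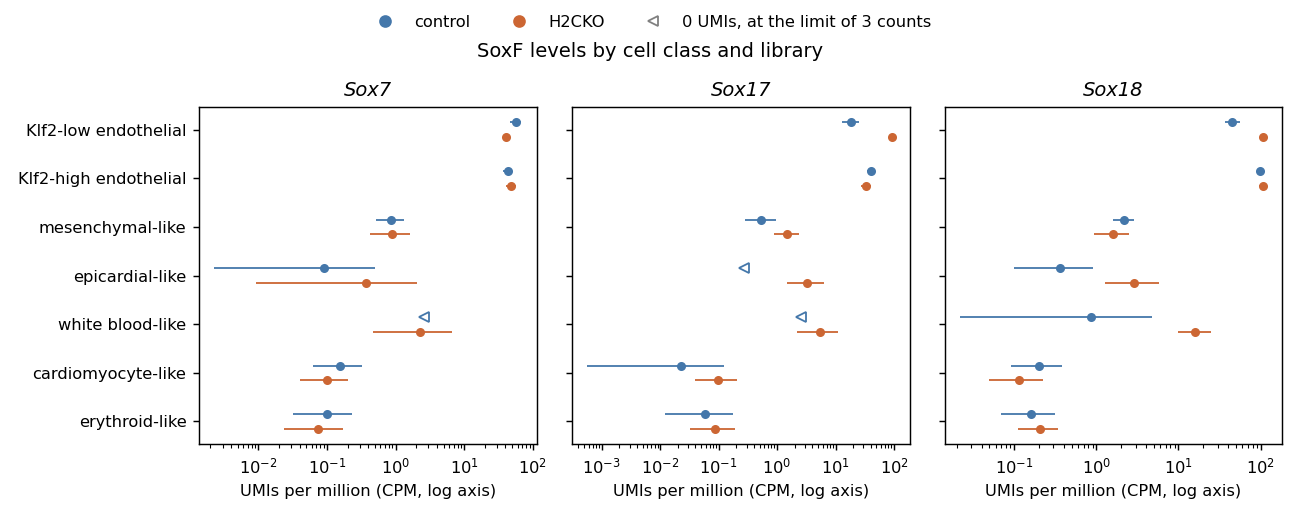
Level of each SoxF gene in CPM (log axis) by cell class; points are the 2 libraries, lines are 95% Poisson intervals and open triangles stand at the limit that a count of 0 allows. The endothelial clusters lie between 18.1 and 108 CPM, above every other class shown; the nearest is Sox18 in white blood-like cells of H2CKO at 16.1 CPM.

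Across the 22 levels given by class and library, Sox17 and Sox18 followed each other with a Pearson r of 0.973, Sox7 and Sox18 with 0.964, and Sox7 and Sox17 with 0.940. These points share libraries and depth, and the contrast between endothelial and other cells dominates them. Of up to 2977 genes compared, those nearest to Sox7 were Exoc3l4 (0.989), Rasip1 (0.987), which acts in vessel lumen formation, and Cdh5 (0.984), the cadherin of endothelial junctions. Nearest to Sox17 were Clec14a (0.974), an endothelial surface lectin, Sox18 itself and Esam (0.956), an endothelial adhesion molecule. Esam (0.981), Clec14a (0.981) and Nos3 (0.979), the endothelial nitric oxide synthase, were nearest to Sox18.

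The family was patterned within the control endothelium. Sox17 stood at 41.0 CPM in Klf2-high and 18.1 CPM in Klf2-low control cells, a 2.26-fold difference (1.57 to 3.34). Sox18 stood at 99.0 and 45.3 CPM, 2.19-fold higher in the Klf2-high cells (1.74 to 2.78). Sox7 ran the other way, at 42.9 and 56.9 CPM, with a ratio of 0.755 (0.592 to 0.966). Among the Klf2-low control cells, 16 of 120 held any Sox17 UMI and 1 cell held 10 of the 36 UMIs.

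The order differed in H2CKO. There Sox17 stood at 33.4 CPM in Klf2-high and 93.1 CPM in Klf2-low cells, so that the Klf2-low cells were 2.79-fold higher (2.26 to 3.46). Sox18 stood at 108 CPM in both, with a ratio of 1.00 (0.877 to 1.14). Sox7 stood at 48.4 and 41.2 CPM, with a ratio of 1.18 (0.956 to 1.44) that does not separate the clusters beyond counting error. For Sox17 the cluster that was lower in the control was thus the higher one in H2CKO.

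Between genotypes, Sox17 and Sox18 were higher in H2CKO in the Klf2-low cells. Sox17 was 5.14-fold higher in H2CKO (3.67 to 7.41; 36 against 588 UMIs), a log2 ratio of CPM plus 5 of 2.09, and stood at rank 9 of 6351 tested genes from the highest. Sox18 was 2.38-fold higher (1.91 to 3.00; 90 against 680 UMIs), with a log2 ratio of 1.16 and rank 61. Sox7 was lower, at 0.724 of the control level (0.578 to 0.911; 113 against 260 UMIs), with a log2 ratio of -0.42 beside a median of -0.26 over all tested genes. Of the 3 members, 2 were past 2-fold higher in H2CKO (a log2 ratio of at least 1), where 1.37% of the tested genes were; 8.91% were past 2-fold lower. The genes were chosen with this contrast known, and Sox17, under 20 CPM in the control, passed the filter on low values only through H2CKO, so their place in it is a description.

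In the Klf2-high cells none of the 3 was past 2-fold, where 4.08% of 6595 tested genes were (0.637% higher and 3.44% lower in H2CKO). Sox7 stood at 1.13 times the control level (0.9002 to 1.41), Sox17 at 0.816 (0.633 to 1.05) and Sox18 at 1.09 (0.940 to 1.26). All 3 intervals include 1. With both clusters pooled, where 8.47% of 6538 tested genes were past 2-fold (0.841% higher and 7.63% lower), Sox17 was 2.19-fold higher (1.87 to 2.58; log2 ratio 1.03), Sox18 1.33-fold (1.19 to 1.48) and Sox7 at 0.916 (0.786 to 1.07). The pooled values also carry the makeup of the endothelium: Klf2-high cells were 67.2% of the endothelial cells in the control (62.1 to 72.0) and 34.8% in H2CKO (31.4 to 38.3). Shorter genes had higher ratios in Klf2-low and in pooled cells (Spearman rho with gene span of -0.45 and -0.49, across genes, which are not independent). In the Klf2-low cells with neither Npr3 nor Nfatc1, of which the control had 14, rho was -0.021. Against the 500 genes nearest in span the Klf2-low ratios were 2.03 for Sox17, 1.06 for Sox18 and -0.49 for Sox7. For the pooled cells the same comparison put Sox17 at 0.96, short of 2-fold, and without the cells holding a UMI of Cldn5 or Fabp4, genes of vascular endothelium, its pooled ratio was 0.48.

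**Figure D2:**
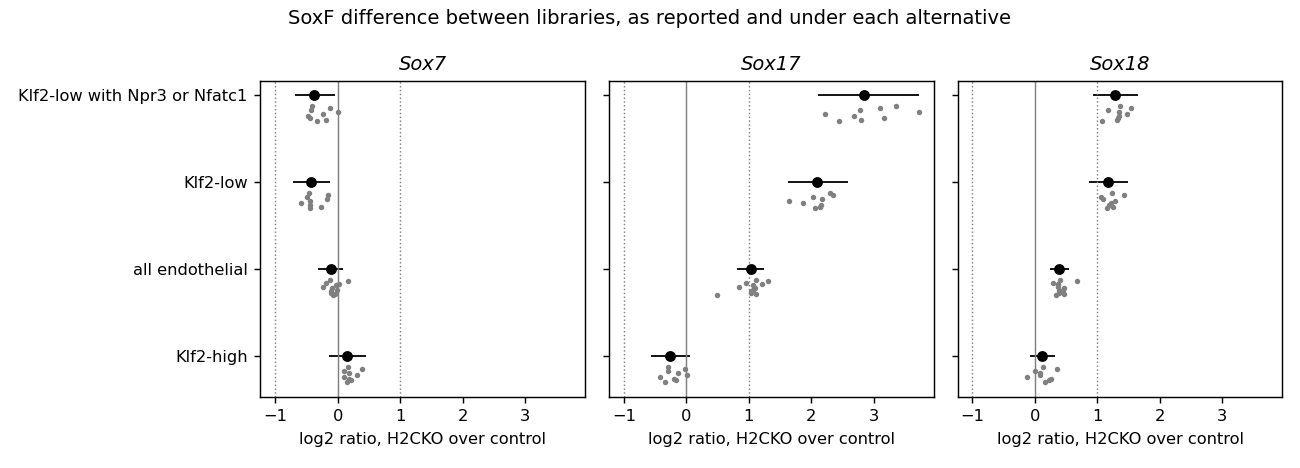
Log2 ratio of H2CKO over control for each SoxF gene in 4 sets of endothelial cells; black points are the reported values with 95% counting intervals, grey points the alternatives, and dotted lines mark 2-fold. Sox17 and Sox18 lie beyond 2-fold in Klf2-low cells under all 9 alternatives run there, and no member does in Klf2-high cells.

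Marker levels moved with these values in Klf2-low cells. Of the 6 endocardial markers none was at 0 in either library, and their summed level was 2031 CPM in the control and 1124 CPM in H2CKO. The 6 vascular endothelial markers summed to 156 and 280 CPM, the 11 mesenchymal markers to 922 and 196 CPM (Prrx1 at 0 in the control), and the 9 erythroid markers to 21980 and 40816 CPM. The 10 cardiomyocyte markers summed to 1018 and 1331 CPM. The 8 white blood markers summed to 1.01 and 2.69 CPM, with Ptprc and C1qa at 0 in both libraries. The part of these differences in the SoxF values was not tested.

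The Klf2-low cells were split by an endocardial marker, a UMI of Npr3 or Nfatc1. Of the control cells 106 of 120 (88.3%) held one, and of the H2CKO cells 322 of 489 (65.8%). Both genes were themselves lower in H2CKO Klf2-low cells, Npr3 at 80.1 against 476 CPM and Nfatc1, the Cre driver, at 47.7 against 86.6 CPM (ratio 0.551, 0.455 to 0.668). Against the 500 genes nearest in span, the log2 ratio was -1.92 for Npr3 and -0.15 for Nfatc1. The split thus does not draw on the same level in both libraries.

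In the marker-bearing cells Sox17 was low in the control. It stood at 7.09 CPM (13 UMIs in 10 of 106 cells) against 81.6 CPM in H2CKO (381 UMIs in 166 of 322 cells), an 11.51-fold difference (6.65 to 21.8). Its log2 ratio of 2.84 stood at rank 4 of 6373 tested genes. Sox18 stood at 37.1 and 97.0 CPM, 2.62-fold higher in H2CKO (2.02 to 3.43), and Sox7 at 55.1 and 41.3 CPM, at 0.751 of the control (0.587 to 0.965). For Sox7 the log2 ratio of -0.37 in these cells became 0.011 with each cell thinned to 5000 UMIs, so its direction did not hold. In these cells 2 of 3 members were past 2-fold higher, where 1.66% of the tested genes were; 8.85% were past 2-fold lower. Sox17 passed the filter on low values only through H2CKO, where it is high, so nothing is read from this count or rank. With each cell thinned to 5000 UMIs, Sox17 was seen in 1 of 101 control and 96 of 313 H2CKO cells of this subset.

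The Klf2-low cells with neither marker were rich in Sox17 and Sox18 in both libraries. Sox17 stood at 151 CPM in the control (95.5 to 226) and 126 CPM in H2CKO (109 to 144), Sox18 at 144 CPM (90.3 to 218) and 138 CPM (121 to 157), and Sox7 at 78.6 CPM (40.6 to 137) and 40.7 CPM (31.6 to 51.7). The control had only 14 such cells, of which 6 held a Sox17 UMI and 1 held 10 of the 23 Sox17 UMIs, and all 3 intervals of the ratio between libraries include 1. Neither of the 2 members tested in these cells was past 2-fold, where 15.4% of 3115 genes were (11.8% higher and 3.63% lower). Within the control, Sox17 was 21.3-fold higher in the cells with neither marker than in those with one (10.3 to 45.7, a counting interval that leaves out the weight of that 1 cell), and within H2CKO 1.54-fold (1.30 to 1.83). For Sox18 these ratios were 3.89 (2.29 to 6.37) and 1.42 (1.21 to 1.67).

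**Figure D3:**
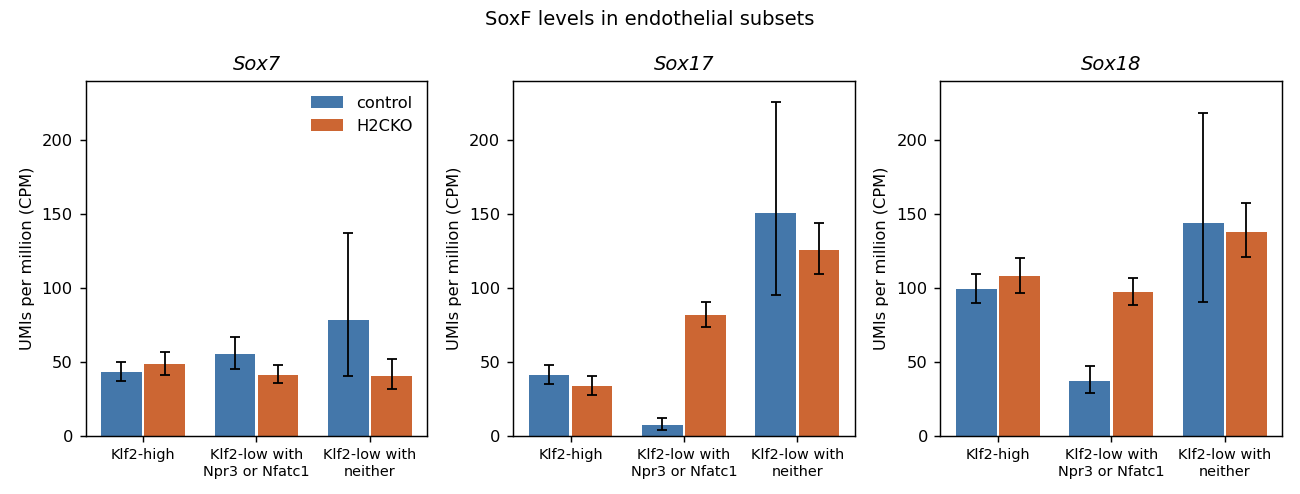
Level of each SoxF gene in CPM in 3 endothelial subsets of both libraries, with 95% Poisson intervals; the bars start at 0. Sox17 in Klf2-low cells with Npr3 or Nfatc1 stands at 7.09 CPM in the control and 81.6 CPM in H2CKO, while the cells with neither marker overlap between libraries for each gene.

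The Klf2-low cells also differed between libraries in 2 genes of vascular endothelium, the junction gene Cldn5 and the fatty acid binding protein gene Fabp4. Cldn5 stood at 24.7 CPM in control and 128 CPM in H2CKO Klf2-low cells, and Fabp4 at 16.1 and 45.1 CPM. A UMI of either was held by 15.8% of the control and 60.7% of the H2CKO Klf2-low cells. A further split by these genes, chosen after the data had been seen, left 94 control and 137 H2CKO cells with an endocardial marker and neither Cldn5 nor Fabp4. In these Sox17 stood at 5.95 CPM in the control (2.72 to 11.3) and 54.5 CPM in H2CKO (43.8 to 67.1), Sox18 at 35.0 and 79.7 CPM, and Sox7 at 56.2 and 43.5 CPM. H2CKO cells with both kinds of marker held more Sox17, at 96.2 CPM (85.4 to 108), and the 12 control cells of that kind stood at 12.5 CPM (3.39 to 31.9). Among cells with an endocardial marker in which neither Cldn5 nor Fabp4 was detected, the H2CKO level of Sox17 lay above that of the control. It lay below that of H2CKO cells with both kinds of marker. Cldn5 and Fabp4 themselves differed between the libraries, so this split does not draw on like levels either, and the part of cell makeup in the SoxF values was not tested.

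**Figure D4:**
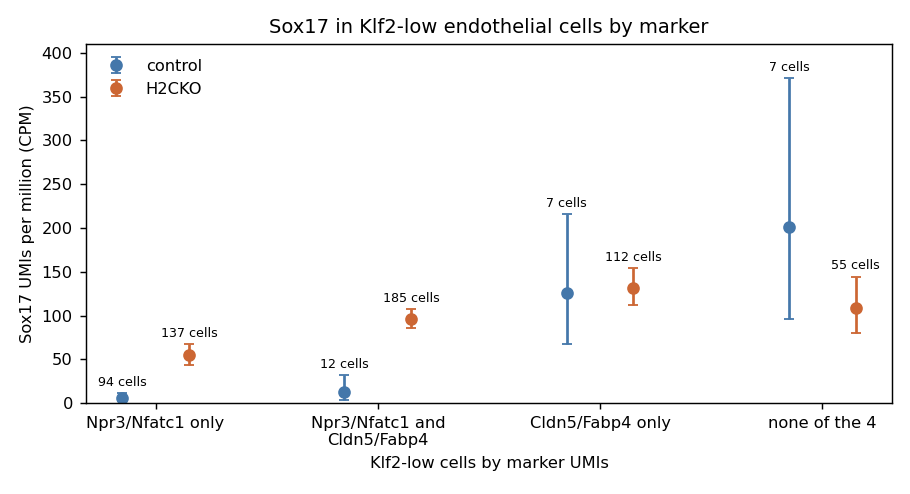
Sox17 in Klf2-low cells by the markers detected, in CPM with 95% Poisson intervals and the number of cells above each point. The 94 control cells with only Npr3 or Nfatc1 stand at 5.95 CPM and the 137 such H2CKO cells at 54.5 CPM; the control groups without an endocardial marker hold 7 cells each.

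Within H2CKO, cells were also compared by the reporter. A GFP UMI was found in 300 of 489 Klf2-low cells and 228 of 261 Klf2-high cells, beside 19.2% and 22.8% of the control cells of these clusters, which have no Cre. In Klf2-low cells Sox17 stood at 93.5 CPM with and 92.5 CPM without a GFP UMI, a ratio of 1.01 (0.850 to 1.21). Sox18 stood at 109 and 106 CPM (ratio 1.03, 0.877 to 1.21) and Sox7 at 43.1 and 37.4 CPM (ratio 1.15, 0.882 to 1.52). Hand2 stood at 9.35 and 20.1 CPM, both far under the 172 CPM of the control. The H2CKO level of Sox17 was found in cells with and without reporter signal. How many cells without a GFP UMI had undergone recombination was not tested.

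In the Klf2-high cells of H2CKO, Sox17 stood at 30.6 CPM in the 228 cells with and 69.9 CPM in the 33 cells without a GFP UMI, a ratio of 0.437 (0.255 to 0.798). Sox18 ran the other way, at 112 and 56.8 CPM (ratio 1.97, 1.14 to 3.74), and so did Sox7, at 50.5 and 21.8 CPM (ratio 2.31, 0.969 to 7.23). The cells without a GFP UMI held 16 Sox17, 13 Sox18 and 5 Sox7 UMIs, had a lower median depth (6534 against 9868 UMIs) and stood lower in Klf2 (1524 against 2399 CPM). With each cell thinned to 5000 UMIs and GFP called again on the thinned counts, which left 201 cells with and 30 without, the ratio was 0.403 for Sox17 (0.189 to 0.933), 1.75 for Sox18 (0.917 to 3.74) and 4.03 for Sox7 (1.06 to 34.1, with 2 Sox7 UMIs in the cells without GFP). There the Sox17 interval still excludes 1, that of Sox18 no longer does and that of Sox7 now does. The cells in each group changed along with the depth, so the 2 changes cannot be told apart, and the part of Klf2 in these ratios was not tested.

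The genes were then followed in single cells, each thinned to 5000 UMIs, which left 345 control and 691 H2CKO endothelial cells and dropped 21 and 59 shallower ones. At least 1 SoxF gene was seen in 45.5% of control cells (40.2 to 50.9) and 63.7% of H2CKO cells (60.0 to 67.3), and without thinning in 73.5% and 81.7%. Sox7 was seen in 17.7% and 19.8%, Sox17 in 9.57% and 24.9%, and Sox18 in 28.7% and 39.8%. Erythroid-like cells thinned in the same way held a member in at most 0.104% of cells, so the endothelial shares lie far above that background.

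Cells with more than 1 of the genes were few at this depth. All 3 were seen in 1.16% of control and 1.88% of H2CKO cells, and Sox17 with Sox18 in 4.64% (2.67 to 7.42) and 10.9% (8.63 to 13.4). Detection of Sox7 with and without Sox17 differed by less than counting error. In the control it was seen in 18.2% of cells with and 17.6% of cells without Sox17, and in H2CKO in 18.6% and 20.2%. Sox18 was seen in 48.5% of control cells with Sox17 (30.8 to 66.5) and 26.6% of those without (21.8 to 31.9). In H2CKO these shares were 43.6% (36.1 to 51.4) and 38.5% (34.3 to 42.9). The pairs of intervals overlap in both libraries at this depth, which does not show that the shares are alike. With all UMIs of each cell the intervals did not overlap: Sox18 was then seen in 74.2% (63.8 to 82.9) and 46.6% (40.6 to 52.6) of control cells with and without Sox17, and in 69.1% (63.7 to 74.2) and 55.3% (50.5 to 60.01) of H2CKO cells. Sox7 was likewise seen in 50.3% (43.0 to 57.5) and 32.7% (25.8 to 40.3) of control cells with and without Sox18. In H2CKO these were 38.2% (33.7 to 42.8) and 31.2% (25.9 to 36.8), which overlap. The shares with all UMIs mix cells of different depth. At 10000 UMIs per cell Sox7 was seen in 29.3% and 29.6% of control cells with and without Sox18, and in 34.2% and 31.3% of H2CKO cells.

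In Klf2-low cells detection differed between genotypes for Sox17 and Sox18. Sox17 was seen in 3.51% of control (0.964 to 8.74) and 31.3% of H2CKO Klf2-low cells (27.1 to 35.8), Sox18 in 19.3% (12.5 to 27.7) and 41.3% (36.8 to 46.0), and Sox7 in 19.3% and 19.6%. Sox17 together with Sox18 was seen in 2 of 114 control and 61 of 460 H2CKO cells. In Klf2-high cells the shares were 12.6% and 12.1% for Sox17, 33.3% and 36.8% for Sox18, and 16.9% and 20.3% for Sox7, all with overlapping intervals. At this depth the share of cells with a Sox17 UMI also rises with its mean level, so more cells with the gene and more molecules per cell cannot be told apart from these shares.

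**Figure D5:**
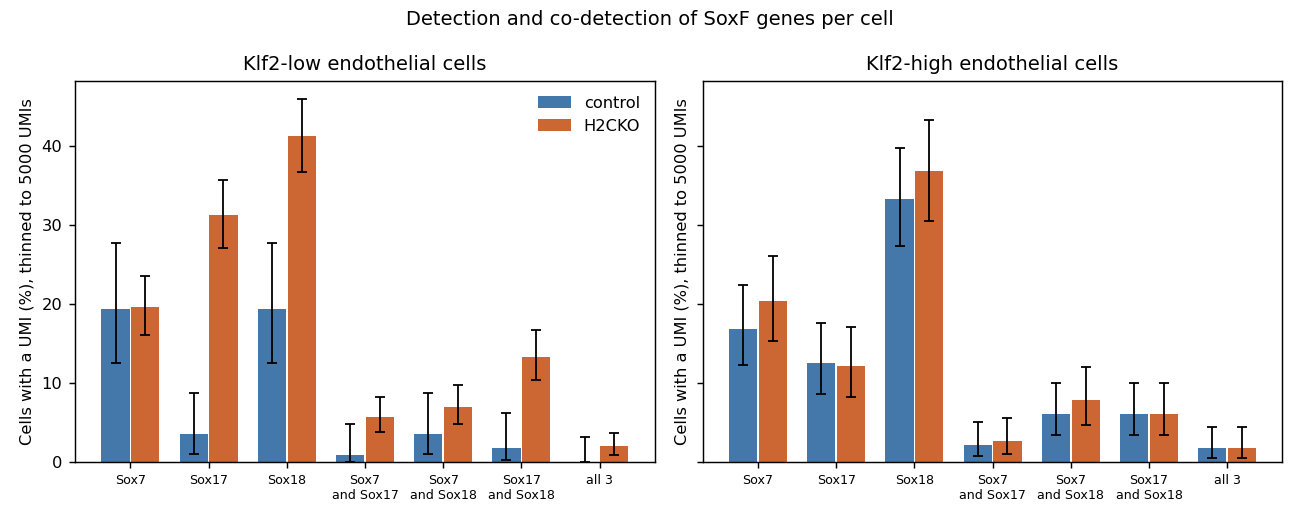
Share of endothelial cells with a UMI of each SoxF gene, pair or all 3, each cell thinned to 5000 UMIs, with 95% exact binomial intervals, in Klf2-low (114 control and 460 H2CKO cells) and Klf2-high cells (231 in each library). Sox17 is seen in 3.51% and 31.3% of Klf2-low cells, while in Klf2-high cells all intervals overlap between libraries.

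Other endothelial genes were examined beside SoxF in single H2CKO Klf2-low cells, with 9 genes chosen after the data had been seen. Sox17 was seen in 38.5% of the 182 cells with Cldn5 (31.4 to 45.9) and 26.6% of the 278 without (21.5 to 32.2), and Sox18 in 48.4% (40.9 to 55.9) and 36.7% (31.01 to 42.7). Sox17 was seen in 31.9% of cells with and 31.1% of cells without Npr3, and in 31.4% and 31.3% of cells with and without Dll4. Sox7 was seen in 25.1% of cells with Notch1 (18.8 to 32.3) and 16.3% of those without (12.2 to 21.03). Every pair of intervals here overlaps, which does not show that the shares are alike.

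Genes higher in cells with a given member than in cells without it, in both libraries, were named by their smaller log2 ratio. For Sox17 the leading gene was Sav1 (0.84), a scaffold of the Hippo pathway, followed by Hbegf (0.78), a growth factor that binds the EGF receptor and acts in valve formation. For Sox7 it was Cdkn1a (0.75), a cell cycle inhibitor, and for Sox18 Bmyc (0.50). No member was among the leading 5 genes of another. Only genes with at least 50 CPM in the cells with the member in both libraries were ranked, so nothing is read from this. The named genes are the highest of 2568 candidates for Sox7, 2475 for Sox17 and 2572 for Sox18. With as few as 33 cells on 1 side the ratios are uncertain, and they are given as a description. The part of the Klf2-high and Klf2-low makeup in them was not tested.

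Transcription factors that act with SoxF in the endothelium are listed next. Of 20 listed factors, all 20 were tested in Klf2-low cells, where 1 was past 2-fold higher and 3 past 2-fold lower in H2CKO, with a median log2 ratio of -0.36 beside -0.26 for all tested genes, of which 1.37% were past 2-fold higher and 8.91% lower. Lmo2, a bridging factor of the haemato-endothelial complex, was the one higher (55.4 and 124 CPM, log2 ratio 1.09). Lower were Etv2, a pioneer of early endothelium (30.7 and 3.48 CPM, -2.07), and the forkhead factors Foxc1 (109 and 28.0 CPM, -1.78) and Foxc2 (114 and 49.3 CPM, -1.13). Against the median of all tested genes Foxc2 stood at -0.87, short of 2-fold. Etv2 passed the filter on low values only through the control, where it is high, so nothing is read from the count of lower factors. The 11 mesenchymal markers summed to 922 and 196 CPM in the same cells, and their part in the lower factors was not tested. Erg, an ETS factor of mature endothelium, stood at 43.3 and 37.5 CPM (-0.18). In Klf2-high cells none of 18 tested factors was past 2-fold, where 4.08% of all tested genes were.

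Genes reported as SoxF targets or as arterial and Notch genes formed another list. Of 24, 14 were tested in Klf2-low cells, 1 past 2-fold higher and 1 lower (1.37% and 8.91% of all tested genes), with a median log2 ratio of -0.49 beside -0.26 for all tested genes. Cldn5, a reported Sox18 target, was the one higher, with a log2 ratio of 2.17. Hey1, a Notch effector, was lower (49.8 and 16.2 CPM, -1.37), and it passed the filter on low values only through the control. Dll4, a Notch ligand with SoxF sites in its enhancers, stood at 28.2 and 46.4 CPM (0.63, ratio interval 1.23 to 2.23), its receptor Notch1 at 149.5 and 88.2 CPM (-0.73), and the VEGF receptor gene Kdr at 230 and 258 CPM (0.16). In Klf2-high cells 15 were tested and 2 were past 2-fold lower, where 3.44% of all tested genes were: the arterial ligand gene Efnb2 (143 and 61.1 CPM, -1.16) and the Notch ligand gene Jag1 (92.6 and 39.8 CPM, -1.12). Against the median of all tested genes these 2 stood at -0.92 and -0.89, short of 2-fold. The 11 mesenchymal markers summed to 1453 and 616 CPM in Klf2-high cells, and their part in these ratios was not tested.

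Lymphatic and venous genes, which include targets of Sox18, held no gene past 2-fold among 4 tested in Klf2-low cells and 1 in Klf2-high cells, where 10.3% and 4.08% of all tested genes were. Prox1, the lymphatic master factor that Sox18 activates, stood at 16.6 and 9.66 CPM in Klf2-low cells and was under the level for testing.

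The other Sox genes give the family's own comparison. Of 16, 4 were tested in Klf2-low cells; none was past 2-fold higher and 1 was past 2-fold lower, where 1.37% and 8.91% of all tested genes were. The lower one was Sox9, a factor of cushion mesenchyme (33.7 and 3.48 CPM, log2 ratio -2.19), which passed the filter on low values only through the control, and Sox4 stood at 427 and 364 CPM (-0.23). In Klf2-high cells 4 of 6 tested were past 2-fold lower, beside 3.44% of all tested genes, namely Sox6 (-1.35), Sox5 (-1.18), Sox9 (-1.15) and Sox11 (-1.05), of which only Sox6 remained so after subtracting the median of all tested genes (-1.12). Ratios fell with gene span in these cells (Spearman rho of -0.48), and these 4 genes were not set against genes of like span. Sox5, at 28.8 and 9.87 CPM, likewise passed only through the control, so nothing is read from these counts. Sox9 was highest in mesenchymal-like cells, at 583 and 316 CPM, and the summed mesenchymal markers stood at 1453 and 616 CPM in Klf2-high and 922 and 196 CPM in Klf2-low cells; their part in these values was not tested.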

How the data were processed

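Whole hearts at embryonic day 11.5 were profiled in 2 libraries, 1 per genotype, with the 10x 3′ chemistry per the labels' protocols. The authors deposited raw UMI counts per gene and barcode, not normalized; per the submitters' processing notes the tools named are Cell Ranger 5.0.1 and Seurat 4 and the build is GRCm38.p6, with no role given, and the annotation and calling of barcodes are not given in the sources used here. Embedding coordinates for part of the barcodes, a unitless score, were deposited as well and only marked which cells the authors had embedded. Ensembl IDs were matched to symbols for 22285 of 22401 features.

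Cells were kept from 500 genes upward and with a mitochondrial share of no more than 10%. Scrublet (scanpy 1.11.5) removed 1134 control cells; its automatic threshold marked 1 cell in H2CKO, so the top 5% of scores (608 cells) were removed there. The shares removed were 11.5% and 5.01%. Clusters came from 2000 variable genes without the SoxF genes, Hand2, reporters, haemoglobin, mitochondrial and sex-linked genes, 30 principal components, 15 neighbours per library and Leiden at resolution 1 (leidenalg 0.10.2). They were named from fixed marker lists, needing at least 1 own marker among the top 10 genes, a rule chosen after seeing the data, and end in "-like"; 4 stayed unnamed. Resolution 1 gave a single endothelial cluster, so the 2 clusters at resolution 2 served as subsets, Klf2-high above 1000 CPM of Klf2.

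For each class in each library, summed UMIs of a gene were set against the sum of all UMIs and scaled to 1000000 (CPM), with exact Poisson, Clopper-Pearson and conditional intervals at 95% (scipy 1.17.1). Ratios used CPM plus 5, over genes with at least 20 CPM and 20 UMIs in the higher library; past 2-fold means a log2 ratio of 1 or more, or -1 or less. The limit for a count of 0 is 3 counts. Thinning drew 5000 UMIs per cell. PCR duplicates are collapsed by UMI, and intervals cover counting error only. The ratios between libraries and their intervals were tested on simulated Poisson counts with known folds. That simulation leaves out the clumping of UMIs in single cells, and it did not cover clustering, thinning or co-detection.

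Members and gene lists were chosen with earlier results of these data known. List genes named are those past 2-fold, at most 6 per list and cluster, plus Dll4, Notch1, Cldn5, Hey1, Erg and Kdr. By likeness, named genes are the 3 nearest across classes and the leading genes across cells. Coding sequence of the members is not reported here.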

Additional observations from a re-analysis of the deposited data

Results flagged for a closer look

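Sox17 and Sox7 had opposite directions between genotypes in the 2 endothelial clusters. The log2 ratio of H2CKO over control for Sox17 was 2.09 in Klf2-low and -0.26 in Klf2-high cells, and that for Sox7 was -0.42 and 0.16. With 1 library per genotype the difference between clusters was not tested. The Klf2-high intervals of both genes include no change, and with each cell weighted alike the Klf2-high value of Sox17 was 0.0057.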

How the results depend on the processing

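Over 40 results, 177 alternatives were run; 147 stayed within the counting interval of the reported value, or within 1.5 times of a reported count, and 30 did not. In Klf2-low cells Sox17 lay between 1.65 and 2.34 and Sox18 between 1.06 and 1.42 on the log2 scale over 9 alternatives each, all past 2-fold. In pooled endothelial cells Sox17 lay between 0.48 and 1.31, past 2-fold in 9 of 12. The alternatives that leave out or split cells by Cldn5 or Fabp4 were chosen after seeing the data. Centring on the median tested gene gave pooled endothelial ratios of 0.17 for Sox7, 1.31 for Sox17 and 0.67 for Sox18, and 0.35 for Sox18 in Klf2-high cells. Without cells holding Cldn5 or Fabp4 the pooled ratio of Sox17 was 0.48, by construction on fewer cells. Under a stricter cell filter (1500 genes or more, mitochondrial share up to 5%), Sox18 in Klf2-high cells was -0.13. In Klf2-low cells with Npr3 or Nfatc1, Sox7 was 0.011 after thinning. In the cells of the deposited embedding, H2CKO endothelial Sox17 stood at 79.1 CPM and Sox18 at 115 CPM. In H2CKO Klf2-low cells thinned to 5000 UMIs, with GFP called again on the thinned counts (262 cells with and 198 without, against 300 and 189), the Sox18 ratio with over without GFP was 1.23. For these the cause was not tested.

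Shares of cells with several genes followed depth by construction. All 3 genes were seen in 9.84% of control cells with all UMIs and 3.32% at 10000 UMIs, and in 12.3% and 7.61% of H2CKO cells. Sox17 with Sox18 was seen in 18.0% and 13.3% of control cells and 28.9% and 26.0% of H2CKO cells. Genes past 2-fold higher and lower numbered 55 and 499 in endothelial, 87 and 566 in Klf2-low and 42 and 227 in Klf2-high cells. Centred on the median gene they numbered 124 and 158, 182 and 242, and 86 and 81. With a filter of 100 CPM they numbered 24 and 169, 33 and 154, and 20 and 73. No paired analysis was possible because each genotype had 1 library.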
